A study of Arabidopsis thaliana with 38 samples.

Results

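Nuclei of the quiescent centre and nuclei of vascular cells were compared in late globular embryos of Arabidopsis thaliana, over all 27826 loci of the array. The comparison took every array whose labels give the late globular stage and the tissue QC (QC_LG, 3 arrays) or vascular (VSC_LG, 4 arrays), 7 of 38 arrays in the series. Both groups were labelled as cell-type captures, so neither side of the difference was the whole embryo. The purity of the captures was not measured here, and some genes of seed coat and pollen, given below, were bright in both groups. Plants grew on soil at 22 °C with 16 h of light and 8 h of dark, flowers were hand-pollinated, and the embryos were harvested after 100 h. Nuclei were captured with INTACT, a tagging system of 2 components in which a tag on the nuclear envelope of the chosen cells lets their nuclei be pulled down. The promoter that drove the tag in each cell type and the plant strain are not stated in the sources used here, no mutant allele or agent is named for either group, and each replicate was a pool of biological material. The other late globular groups were ground tissue (GSC_LG, 3 arrays), suspensor (SUS_LG, 3) and whole embryo (EMB_LG, 4).

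The quiescent centre is a small group of slowly dividing cells at the base of the embryo that keeps the surrounding stem cells of the root undifferentiated. It descends from the hypophysis, the uppermost cell of the suspensor, and the homeobox gene WOX5, the PLETHORA and BABY BOOM transcription factors and SCARECROW mark or maintain it. Vascular precursors lie above it in the middle of the embryo, where the auxin response factor MONOPTEROS turns on TMO5, whose dimer with LHW drives cytokinin synthesis through LOG4 and with it the divisions that widen the vascular cylinder.

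Levels are log2 intensities, and a difference is the mean of QC_LG minus the mean of VSC_LG on that scale, with its standard error (SE) from a limma fit. Calls were made where the p-value, adjusted over all loci by Benjamini-Hochberg, was under 0.05. Array medians of the 7 arrays lay between 2.54 and 2.71, and no detection call was used, so that a level near or below these values may be background. Across loci, the VSC_LG arrays correlated with each other at 0.751 to 0.792 and the QC_LG arrays at 0.628 to 0.761. QC_LG 2 stood apart, with the smallest interquartile range of all 38 arrays (1.03) and a mean correlation of 0.635 with its own group. Calls and leading lists that rest on it are given with and without it.

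In all, 19 of 27826 loci were called, 0.0683% of those tested: 11 were higher in QC nuclei (0.0395%) and 8 were lower (0.0288%). The rises were led by AT1G30974 and held 4 loci with a gene symbol, CYP83B1, MED9, CYP98A8 and JOSL. The falls were mostly named genes: the chaperone genes HSP70, HSP101 and ROF2, the photosynthesis genes RBCS1B and LHCA4, the cytokinin-activating enzyme LOG4, the small membrane protein RCI2B and the locus AT5G17900. At all 19 the QC_LG and VSC_LG arrays did not overlap, which held for 6.21% of all loci (3.03% higher and 3.18% lower in QC nuclei). An unadjusted p under 0.05 was reached by 6.54% of loci, 3.39% higher and 3.15% lower. The counts of each gene list at that unadjusted p, given below, are to be read beside these shares. The count without QC_LG 2 was 20, of which 8 loci were shared with the 19 and 2 were lower in QC nuclei, so the number stayed alike while most of the calls were other loci. Leaving out QC_LG 1 gave 49 calls, leaving out QC_LG 3 gave 9, and leaving out VSC_LG 1, 2, 3 or 4 gave 4, 7, 10 or 20. The smallest difference called was 1.70, the median SE over loci was 0.39 and the median difference was 0.01. In bulk nuclei, a change in the make-up of the captured cells and a change of RNA per nucleus cannot be told apart.

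**Figure D1:**
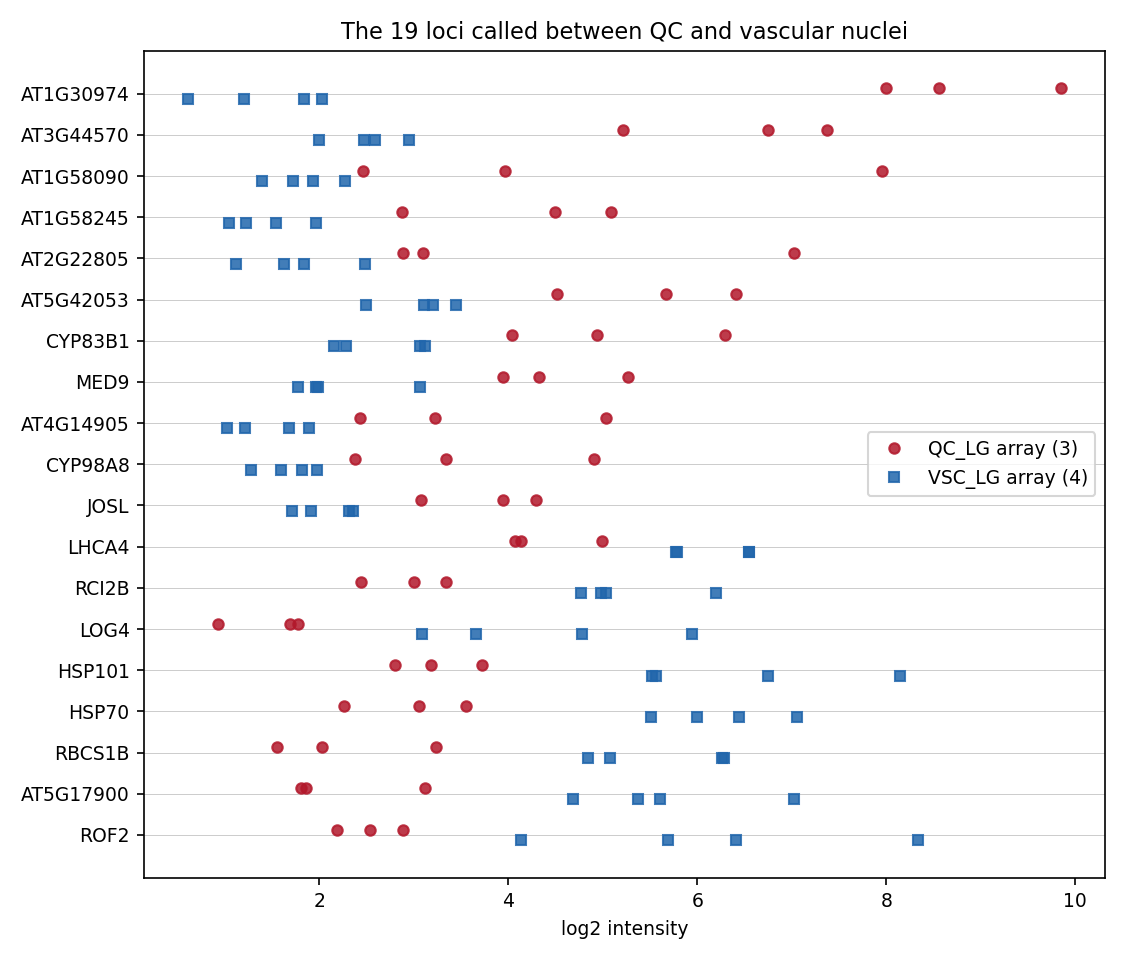
Log2 intensity of the 19 called loci on the 3 QC_LG arrays (red circles) and the 4 VSC_LG arrays (blue squares), ordered by the difference. The circles and squares of each locus do not overlap, and AT1G30974 has the widest gap between them, from 2.03 to 8.00.

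AT1G30974, a locus without a symbol in the gene table used, gave the largest difference of the comparison. Its levels on the QC_LG arrays were 8.56, 9.85 and 8.00, and on the VSC_LG arrays 1.84, 2.03, 1.20 and 0.61. Every QC array was bright and every vascular array lay below its array median. The difference was 7.38 (SE 0.977, adjusted p = 0.00026), a 167-fold ratio, from 1.42 ± 0.646 (SD, n = 4) to 8.80 ± 0.949 (SD, n = 3). It was called in each of 14 reruns with another setting or without 1 array, with a difference between 6.86 and 7.79.

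The locus was not bright in QC nuclei alone. Mean levels were 7.17 in GSC_LG and, at the earlier stages, 7.92 in ground tissue nuclei at 81 h (GSC_EG) and 6.17 in nuclei of the inner lower tier at the earliest stage, of 16 cells (ILT_16C). Whole-embryo nuclei stood at 1.65, 4.26 and 2.62 at the 3 stages, early vascular nuclei (VSC_EG) at 2.93 and suspensor nuclei at 2.25 and 2.59. Arrays within a group differed widely: the plot of levels over all 38 arrays shows 1 ILT_16C array above 8 with the other two near 5, and 1 GSC_LG array near 4.5 with the other two above 8.

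A pair of other called loci without a symbol had their highest group means in the same 4 groups. AT1G58245 stood at 2.88, 5.09 and 4.49 in QC_LG and 1.04, 1.54, 1.96 and 1.22 in VSC_LG, a difference of 2.71 (SE 0.501, adjusted p = 0.0244). AT5G42053 stood at 5.67, 6.41 and 4.52 against 3.45, 3.11, 3.20 and 2.49, a difference of 2.47 (SE 0.50, adjusted p = 0.0405). For both loci QC_LG 2 was the highest array, as it was for AT1G30974. Without QC_LG 2 neither passed (adjusted p = 0.133 and 0.198), and AT1G58245 was also lost without QC_LG 3 (0.0978), VSC_LG 1 (0.0774) or VSC_LG 2 (0.0561). AT5G42053 was lost without any single array but QC_LG 3, with adjusted p from 0.0658 to 0.198. Group means of AT1G58245 were 3.23 in GSC_EG, 2.80 in ILT_16C and 2.67 in GSC_LG, and at most 1.76 in the others; those of AT5G42053 were 4.40, 3.55 and 4.12 in the same groups and at most 3.20 in the others.

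**Figure D2:**
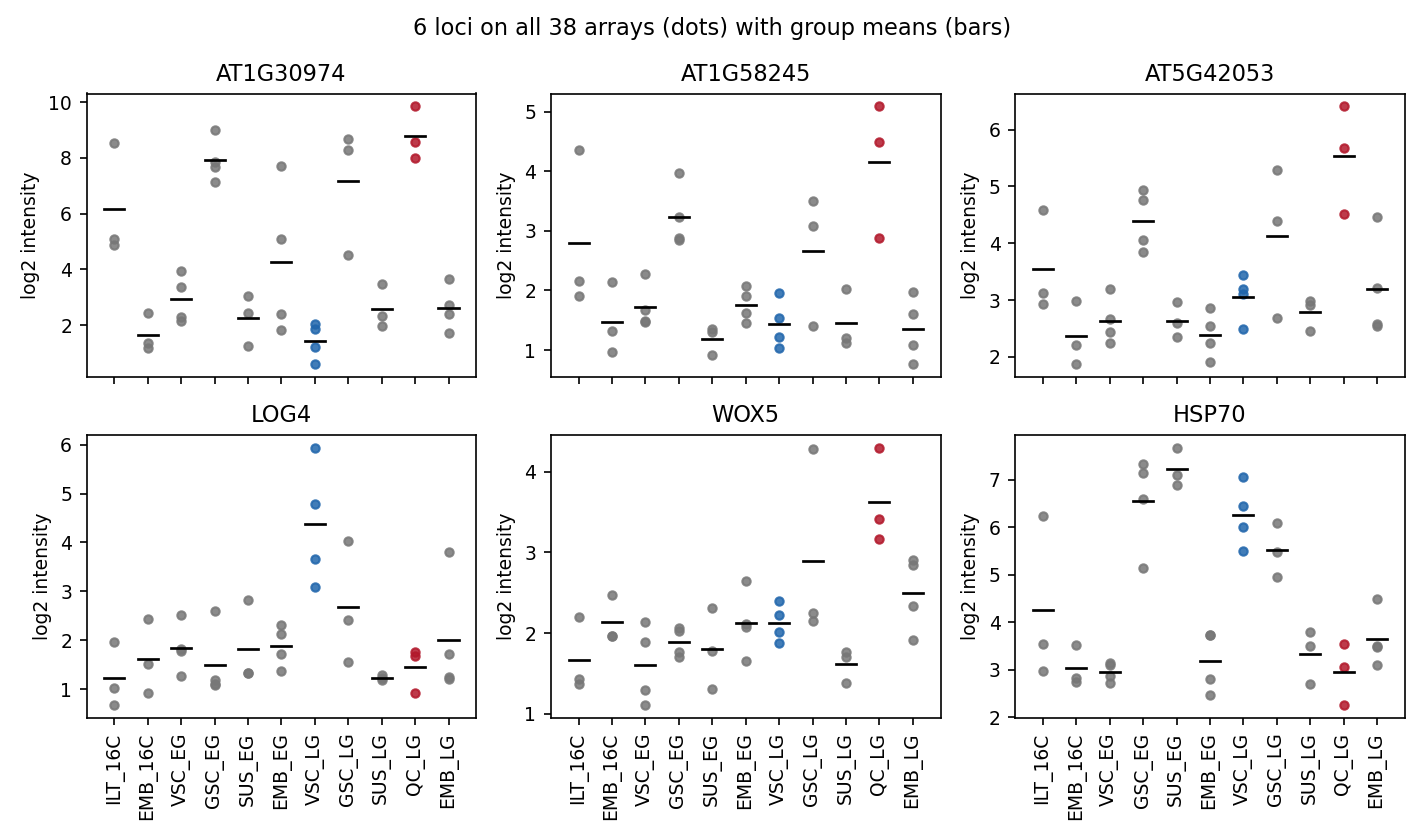
Log2 intensity of 6 loci on all 38 arrays, with QC_LG in red, VSC_LG in blue, the other 9 groups in grey and group means as bars. AT1G30974, AT1G58245 and AT5G42053 have their 4 highest means in QC_LG, GSC_EG, GSC_LG and ILT_16C, LOG4 has its highest mean in VSC_LG (4.37), WOX5 in QC_LG (3.63), and HSP70 is above 4.9 on every VSC_LG and GSC_LG array and below 3.6 on every QC_LG array.

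The 4 rises with a symbol were genes of metabolism, transcription and protein turnover. CYP83B1 (AT4G31500), a cytochrome P450 of indole glucosinolate synthesis, stood at 4.04, 4.94 and 6.29 in QC_LG and at 2.15, 3.12, 3.07 and 2.28 in VSC_LG. It rose by 2.44 (SE 0.466, adjusted p = 0.0313), a 5.41-fold ratio, and its next highest group means were those of whole-embryo nuclei at 81 h (4.25) and 100 h (3.76). The QC arrays were spread over more than 2 log2 units, with QC_LG 3 the highest. The call was lost without QC_LG 2 (adjusted p = 0.0575), QC_LG 3 (0.267), VSC_LG 1 (0.0953) or VSC_LG 4 (0.0602).

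MED9 (AT1G55080), a subunit of the Mediator complex that links transcription factors to RNA polymerase II, stood at 3.94, 4.33 and 5.27 in QC_LG and at 1.96, 1.77, 3.07 and 1.99 in VSC_LG. It rose by 2.32 (SE 0.429, adjusted p = 0.0244), and in the other 9 groups its mean lay between 2.34 and 3.37. JOSL (AT2G29640), of the Josephin family of deubiquitinating enzymes, had QC_LG levels of 3.94, 3.08 and 4.29 against 1.91, 2.31, 1.71 and 2.36. It rose by 1.70 (SE 0.315, adjusted p = 0.0244), the smallest rise called, and its next highest group mean was 3.00 in GSC_EG, with at most 2.16 in the rest. Both were lost without QC_LG 3 (adjusted p = 0.178 for MED9 and 0.17 for JOSL) or VSC_LG 1 (0.0729 each); MED9 was also lost without VSC_LG 2 (0.0729) and JOSL without VSC_LG 3 (0.0804).

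CYP98A8 (AT1G74540), a cytochrome P450 known from the synthesis of phenolamides of the pollen wall, stood at 4.91, 3.34 and 2.38 in QC_LG and at 1.28, 1.82, 1.59 and 1.98 in VSC_LG. It rose by 1.88 (SE 0.37, adjusted p = 0.0393), with the lowest QC array at 2.38 and the highest vascular array at 1.98. Without QC_LG 1, the highest array, the difference was 1.20 (adjusted p = 0.165), and the call was also lost without QC_LG 2 (0.0575), VSC_LG 1 (0.104), VSC_LG 2 (0.0683) or VSC_LG 3 (0.0846). Other genes of pollen are given below.

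The other 4 rises carry no symbol. AT3G44570 stood at 7.37, 5.21 and 6.75 against 2.47, 2.95, 2.59 and 2.00, a difference of 3.94 (SE 0.778, adjusted p = 0.0393). Both groups were tight relative to the gap, and the mean elsewhere was highest in early suspensor nuclei (5.28). The call was lost without any single array but QC_LG 2, with adjusted p from 0.0651 to 0.143. AT4G14905 stood at 3.22, 2.43 and 5.03 against 1.02, 1.89, 1.21 and 1.68 (difference 2.11, adjusted p = 0.0393). AT1G58090 stood at 3.96, 2.46 and 7.95 against 1.93, 2.27, 1.39 and 1.72 (difference 2.96, adjusted p = 0.0411), and AT2G22805 at 3.10, 2.89 and 7.02 against 1.84, 1.63, 2.48 and 1.12 (difference 2.57, adjusted p = 0.04996). In these 3 loci QC_LG 3 lay far above the other QC arrays, and without it the differences were 1.37, 1.38 and 1.23, with adjusted p of 0.36, 0.317 and 0.405. Each of the 3 was also lost without VSC_LG 1 (adjusted p = 0.117, 0.0953 and 0.104), VSC_LG 2 (0.0571, 0.0729 and 0.134) or VSC_LG 3 (0.113, 0.137 and 0.0625), and AT1G58090 and AT2G22805 without VSC_LG 4 (0.0753 and 0.127). The 7 rises and 1 fall without a symbol in the gene table lie outside the naming rule and were named after their values were seen.

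Heat shock genes encode chaperones and the factors that induce them, and HSP70, HSP101 and ROF2 were lower in QC nuclei. Of 23 genes of the list 3 fell, 0 rose and 20 did not pass, and 22 of the 23 differences were below 0, with a median of -1.39 against 0.01 over all loci. At an unadjusted p under 0.05, 12 were lower and 0 higher, where 3.15% of all loci were lower. Mean levels of the list were 2.63 to 3.00 on the QC_LG arrays and 3.66 to 5.18 on the VSC_LG arrays, with VSC_LG 3 the highest; without that array the median was -0.93. The other late globular arrays lay between 2.56 and 3.95, so that VSC_LG 2 and 3 were above all of them.

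HSP70 (AT3G12580), a heat-inducible cytosolic chaperone, stood at 2.26, 3.55 and 3.06 in QC_LG and at 6.0, 5.51, 7.05 and 6.44 in VSC_LG. It fell by 3.3 (SE 0.546, adjusted p = 0.0108), a 9.84-fold ratio; the call held without any single array and was lost when the 7 arrays were fitted alone (adjusted p = 0.121), as were all other calls but AT1G30974. Means in the other groups ran from 2.96 in VSC_EG to 7.22 in early suspensor nuclei, with 5.51 in GSC_LG. HSP101 (AT1G74310), which resolves protein aggregates, stood at 3.18, 2.80 and 3.72 against 5.52, 6.75, 8.14 and 5.56. It fell by 3.26 (SE 0.657, adjusted p = 0.0405), and the call was lost without any single array but VSC_LG 4, with adjusted p from 0.0563 to 0.197. ROF2 (AT5G48570), a peptidyl-prolyl isomerase that works with HSP90 in the heat response, stood at 2.54, 2.19 and 2.89 against 4.13, 6.41, 8.34 and 5.69. The vascular arrays spanned more than 4 log2 units, and those of QC less than 1. ROF2 fell by 3.6 (SE 0.719, adjusted p = 0.0393), the largest fall called, and was lost without any single array but VSC_LG 1 or 4, with adjusted p from 0.0578 to 0.18.

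The uncalled genes of the same response named next had arrays that did not overlap. HSFA2 (AT2G26150), the heat-induced transcription factor, was at -2.03 (adjusted p = 0.197), with 2.38, 3.11 and 2.91 in QC_LG and 4.37, 4.48, 6.16 and 4.33 in VSC_LG. MBF1C (AT3G24500), a coactivator of the heat response, was at -2.32 (0.239), HSP90.1 (AT5G52640) at -2.16 (0.27) and the small heat shock protein HSP17.4 (AT3G46230) at -1.93 (0.113). ROF1 (AT3G25230), a relative of ROF2 outside the list, was at -1.96 (0.0873, or 0.0179 without QC_LG 3, its highest QC array). Leaving out that array could only widen the fall of ROF1, so the lower value is no added support. HSP18.2 was the 1 gene of the list above 0, at 0.33. Of the late globular groups, ground tissue nuclei were nearest to vascular nuclei in HSFA2 (5.09), MBF1C (6.52) and HSP90.1 (4.59), while suspensor and whole-embryo nuclei lay at 3.18 and 2.83, 5.58 and 4.33, and 3.48 and 3.21. For HSP17.4 the 3 groups were close, at 3.71 in GSC_LG, 3.67 in SUS_LG and 3.81 in EMB_LG.

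**Figure D3:**
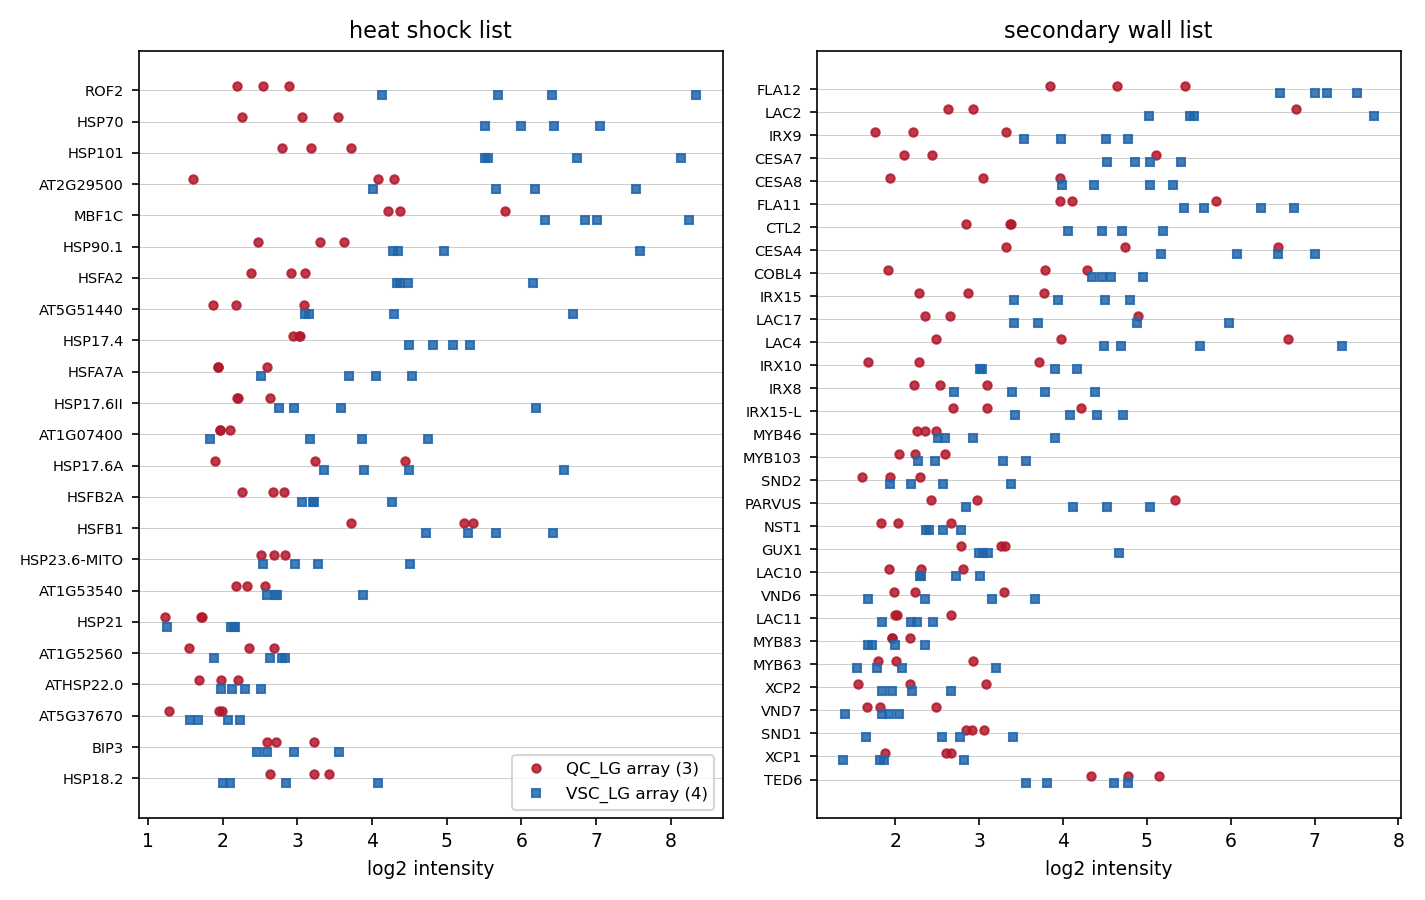
Log2 intensity of each gene of the heat shock list (left) and the secondary wall list (right) on the 3 QC_LG arrays (red circles) and 4 VSC_LG arrays (blue squares), ordered by the difference with the most negative on top. In heat shock genes the circles lie left of the squares for 11 of 23 genes without overlap; in secondary wall genes this holds for 6 of 31, and 1 circle, QC_LG 1, often lies among the squares.

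Among photosynthesis genes encoded in the nucleus, RBCS1B and LHCA4 were lower in QC nuclei. Of 41 genes 2 fell, 0 rose and 39 did not pass, and 33 differences were below 0, with a median of -0.53. At an unadjusted p under 0.05, 5 genes were lower and 0 higher, where 3.15% of all loci were lower. Mean levels of the list were 3.59 to 3.87 on QC_LG arrays and 4.03 to 4.37 on VSC_LG arrays, which did not overlap. SUS_LG 1 and 3, at 3.77 and 3.76, lay within the QC_LG range, SUS_LG 2 stood at 4.24, GSC_LG at 4.07 to 4.23 and EMB_LG at 5.38 to 5.80. RBCS1B (AT5G38430), a small subunit of Rubisco, stood at 2.03, 1.55 and 3.23 in QC_LG and at 5.08, 4.84, 6.26 and 6.28 in VSC_LG. It fell by 3.34 (SE 0.569, adjusted p = 0.0118), a 10.2-fold ratio, and was lost without QC_LG 2 (adjusted p = 0.0596). Its group mean was 7.68 in whole-embryo nuclei at 100 h, 5.52 in GSC_LG and 2.83 in SUS_LG, so the 2 lowest means of the series were those of QC_LG and SUS_LG.

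LHCA4 (AT3G47470), an antenna protein of photosystem I, stood at 4.99, 4.07 and 4.13 against 6.55, 5.78, 5.77 and 6.55. It fell by 1.76 (SE 0.338, adjusted p = 0.0313), and was lost without QC_LG 2 (adjusted p = 0.12), QC_LG 3 (0.144), VSC_LG 1 (0.0953) or VSC_LG 4 (0.0719). Other members of the same families did not pass. RBCS1A (AT1G67090), the other Rubisco gene named here, was at -0.58 (adjusted p = 0.774), with the 3 QC_LG arrays at 5.05, 6.33 and 5.29 and the vascular arrays at 6.36, 5.61, 6.26 and 6.34. The antenna genes LHCB5 (AT4G10340), LHCB4.2 (AT3G08940) and LHB1B1 (AT2G34430) were at -1.43, -1.20 and -0.98, with adjusted p of 0.27, 0.224 and 0.767. TOC132 (AT2G16640), a receptor of the chloroplast import machinery, was the first locus beyond the threshold, at -2.44 (adjusted p = 0.0523). It stood at 3.49, 2.09 and 1.80 against 5.31, 4.61, 4.80 and 4.88, and passed without QC_LG 1, its highest QC array (0.0107). Leaving out that array could only widen the fall, so the pass is no added support.

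RNA of the organelles was also on the arrays, although nuclei were captured. Of 14 loci encoded in the plastid 0 were called, and the median was -1.09. At an unadjusted p under 0.05, 6 were lower and 1 higher, where 3.15% and 3.39% of all loci were. The values followed single arrays: the list level was 7.91 on QC_LG 1 and 5.42 and 5.63 on QC_LG 2 and 3, against 6.82 to 7.43 in VSC_LG and 7.94 to 8.45 in EMB_LG. The median was -1.89 without QC_LG 1 and -0.37 without QC_LG 2. Of 92 mitochondrial loci 0 were called, and 23 were lower and 2 higher at an unadjusted p under 0.05, beside the same shares of all loci. Their median was -0.51, or -0.17 without QC_LG 2 and -0.93 without QC_LG 1. Both organelle lists were drawn up after the files were seen, and the part of organelle RNA in the photosynthesis result was not tested.

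LOG4 (AT3G53450), which releases active cytokinin from its nucleotide precursor, was the 1 called gene of 36 on the vascular list and the 1 called of 36 on the cytokinin list. It stood at 1.69, 1.77 and 0.93 in QC_LG and at 4.78, 3.09, 5.94 and 3.66 in VSC_LG. All QC arrays lay below their array medians, and all vascular arrays above. LOG4 fell by 2.90 in QC nuclei (SE 0.603, adjusted p = 0.0468), a 7.48-fold ratio, and its group mean of 4.37 in VSC_LG stood beside 1.85 in VSC_EG, 2.67 in GSC_LG and 1.24 to 2.00 in SUS_LG and EMB_LG. The call was lost without QC_LG 1 (adjusted p = 0.0578), QC_LG 2 (0.0889), QC_LG 3 (0.254), VSC_LG 1 (0.137) or VSC_LG 3 (0.272). Median centring and array weights also lost it.

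The regulators upstream of LOG4 in the vascular pathway did not pass. TMO5 (AT3G25710), the transcription factor of the LOG4-inducing dimer, was at 0.22 (SE 0.457, adjusted p = 0.985), with 4.14, 4.24 and 3.18 in QC_LG and 3.76, 3.08, 3.6 and 4.1 in VSC_LG. Its partner LHW (AT2G27230) was at -0.33 (0.978), and MP (AT1G19850), the auxin response factor MONOPTEROS, at 0.30 (0.983). T5L1 (AT1G68810), a close relative of TMO5 that also pairs with LHW, lay the other way from LOG4. It was at 1.49 (SE 0.381, adjusted p = 0.204), with 3.72, 3.27 and 4.57 in QC_LG and 2.25, 1.62, 3.27 and 2.30 in VSC_LG, where the lowest QC array and the highest vascular array met at 3.27.

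The homeobox genes of vascular patterning and their partners did not pass either. ATHB-8 (AT4G32880) was at 0.43 (adjusted p = 0.936), PHB (AT2G34710) at -0.64 (0.909) and ATHB-15 (AT1G52150) at -0.50 (0.783), the last with arrays that did not overlap. ZPR3 (AT3G52770), a small inhibitor of these homeobox proteins, was at -0.72 (0.888). The Dof transcription factor genes DOF2.4 (AT2G37590) and DOF5.6 (AT5G62940), of early phloem and vascular development, were at -0.87 (0.571) and -0.70 (0.822). Over the vascular list, 1 of 36 genes was higher and 2 were lower at an unadjusted p under 0.05, and the median was -0.06. Mean levels of the list were 2.68 to 2.98 in QC_LG and 2.82 to 3.08 in VSC_LG, which overlapped.

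The other 35 cytokinin genes did not pass. CKX3 (AT5G56970), a cytokinin oxidase, was at -0.75 (adjusted p = 0.712), AHP3 (AT5G39340), a phosphotransfer protein, at -0.91 (0.822) and ARR7 (AT1G19050), a response regulator induced by cytokinin, at -0.79 (0.851). The arrays did not overlap for CKX3 and AHP3. The list as a whole was centred near 0, with a median of -0.07 over 36 genes, and 2 genes lower and 0 higher at an unadjusted p under 0.05.

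None of the 30 genes of the quiescent centre and root stem cell niche list passed, at 0.0683% called over all loci. At an unadjusted p under 0.05, 4 were higher and 2 lower, where 3.39% and 3.15% of all loci were. Mean levels of the list were 2.73 to 2.78 in QC_LG and 2.51 to 2.63 in VSC_LG, without overlap, and the median difference was 0.11, or 0.01 without QC_LG 2. The 3 GSC_LG arrays, at 2.85, 3.25 and 3.00, and EMB_LG 1 and 4, at 2.98 and 3.04, lay above every QC_LG array. WOX5 (AT3G11260), the defining homeobox gene of the quiescent centre, stood at 3.42, 4.30 and 3.17 in QC_LG and at 1.88, 2.22, 2.40 and 2.01 in VSC_LG. Every vascular array lay below its array median and every QC array above. The difference was 1.5 (SE 0.385, adjusted p = 0.204), a 2.83-fold ratio, and it passed only with quantile normalization (1.83, adjusted p = 0.0281). The mean in QC_LG, 3.63, was the highest of the 11 groups, ahead of GSC_LG (2.89) and EMB_LG (2.50), and 1 GSC_LG array reached 4.28.

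WIP4 (AT3G20880), a zinc finger gene that with its relatives NTT and WIP5 is needed for the embryonic root, was the gene of this list nearest to a call. It stood at 3.86, 2.93 and 4.75 in QC_LG and at 1.72, 2.48, 2.33 and 2.07 in VSC_LG, at 1.70 (SE 0.374, adjusted p = 0.0708). Without QC_LG 2, its lowest QC array, it was called with 2.15 (adjusted p = 0.0131), as it was with quantile normalization (0.0225), array weights (0.032) and an intensity trend (0.0436). In the other reruns WIP4 did not pass. Leaving out QC_LG 2 could only widen the rise, so that call is no added support. The other 10 groups had means of 1.62 to 2.73. BBM (AT5G17430), the BABY BOOM factor of stem cell maintenance, was at 1.40 (SE 0.573, adjusted p = 0.64), with 4.36, 3.17 and 4.44 against 2.77, 2.48, 2.87 and 2.24, and its mean in GSC_LG (4.67) was above that in QC_LG (3.99). SCR (AT3G54220), which acts in the quiescent centre and in ground tissue, was at 0.94 (adjusted p = 0.751), with means of 4.07 in QC_LG, 3.13 in VSC_LG and 5.53 in GSC_LG.

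The other members named here did not pass either. PLT1 (AT3G20840) and PLT2 (AT1G51190), the PLETHORA genes of the root stem cell niche, were at 0.35 (SE 0.609, adjusted p = 0.983) and -0.46 (SE 0.522, 0.966). TPST (AT1G08030), which sulfates the root growth factor peptides, was at 0.64 (0.831), with 2.63 to 2.79 in QC_LG and 1.94 to 2.23 in VSC_LG, without overlap. AUX1 (AT2G38120), an auxin influx carrier, was at -0.96 (0.761), with 3.36, 3.44 and 2.99 against 4.67, 3.74, 3.70 and 4.80, and SHR (AT4G37650), the partner of SCR made in vascular cells, was at -0.69 (0.901). AT3G24240, a list member printed under its locus, was at -0.73 (0.756), with arrays that did not overlap. Its levels were 1.79, 1.64 and 1.42 against 2.98, 2.19, 2.23 and 2.01. AT3G24240 and AUX1 were the genes of the list lower at an unadjusted p under 0.05. TPST and SHR lie outside the naming rule and were named after their values were seen. As a check of the labels, the markers of each list lay on both sides of 0: 18 of the 30 genes of the quiescent centre and root stem cell niche were above 0 and 12 below, and 17 of the 36 vascular genes were above 0 and 19 below.

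**Figure D4:**
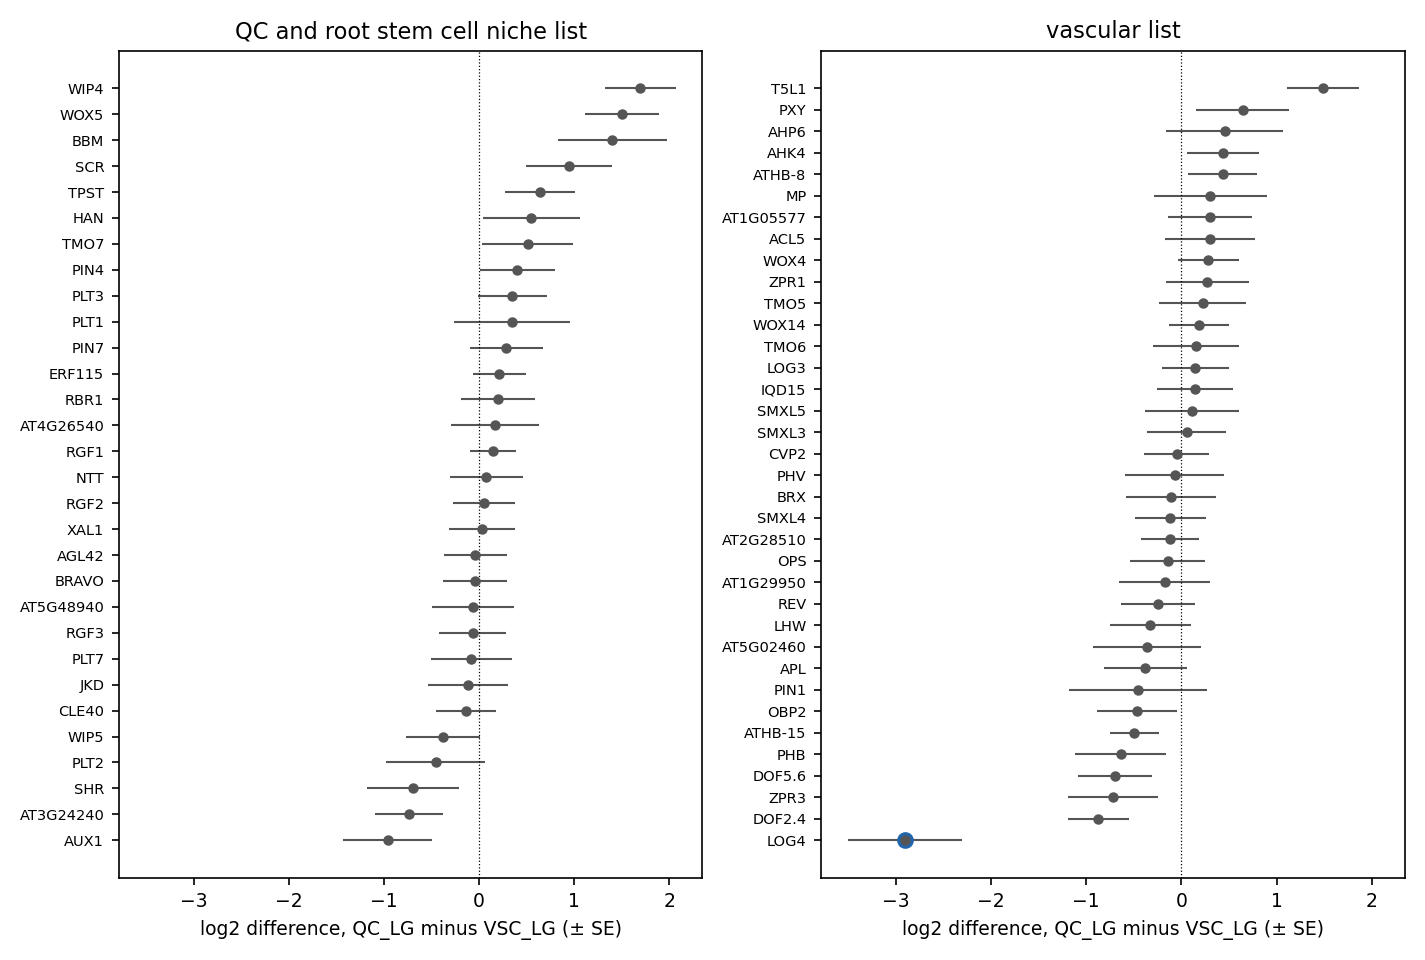
Log2 difference QC_LG minus VSC_LG with its SE for each gene of the list of the quiescent centre and root stem cell niche (left, 30 genes) and of the vascular list (right, 36 genes). WIP4, WOX5 and BBM are the 3 highest on the left, and on the right T5L1 (1.49) and LOG4 (-2.90, blue, the 1 called) lie outside the rest.

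Auxin genes were little different. Of 46 auxin response genes 0 were called, with a median of 0.06 and 2 higher and 0 lower at an unadjusted p under 0.05, and of 27 genes of auxin transport and synthesis 0 were called, with a median of 0.14 and 1 lower and 0 higher. ARF10 (AT2G28350), a repressing auxin response factor of the root cap, was at 1.3 (adjusted p = 0.444), with 4.42, 2.74 and 4.51 against 2.66, 2.19, 2.91 and 2.59. IAA7 (AT3G23050), a repressor of auxin response, was at -1.02 (0.822) and the auxin receptor gene AFB5 (AT5G49980) at -0.68 (0.823). Among the 8 root cap and columella genes, which include ARF10, 0 were called, 1 was higher and 0 were lower at an unadjusted p under 0.05, and the median was 0.01.

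Cell cycle genes did not pass in any list. Of 24 genes of G2 and M phase 0 were called, 1 was lower and 0 were higher at an unadjusted p under 0.05 (3.15% of all loci were lower), 18 were below 0 and the median was -0.25. The list level was 2.54 to 2.66 in QC_LG and 2.85 to 2.98 in VSC_LG, without overlap, while the SUS_LG arrays stood at 2.80, 2.42 and 2.40. 3xHMG-box2 (AT4G23800), which binds mitotic chromosomes, was at -1.68 (adjusted p = 0.534), the mitotic kinase gene CDKB2;1 (AT1G76540) at -0.89 (0.856) and the mitotic cyclin gene CYCB1;1 (AT4G37490) at -0.58 (0.808), each with arrays that did not overlap. Over the list, arrays did not overlap for 3 genes lower and 1 gene higher in QC nuclei, where 3.18% and 3.03% of all loci did not. The 20 S phase genes had a median of 0.00 and 0 calls (1 higher and 0 lower at an unadjusted p under 0.05), and PCNA1 (AT1G07370), the sliding clamp of replication, was at 1.22 (0.715). The 20 D-type cyclins and cell cycle inhibitors had a median of 0.04 and 0 calls (0 in either direction at that unadjusted p). Of 31 genes of DNA methylation and Polycomb 0 were called, with a median of 0.05, 1 lower and 0 higher at that unadjusted p, and VIM1 (AT1G57820), which recruits maintenance methylation, at -1.33 (0.714).

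Secondary wall genes, which build the thickened walls of xylem, were at lower values in QC nuclei on 2 of 3 arrays. Of 31 genes 0 were called, and the median was -0.61. At an unadjusted p under 0.05, 12 were lower and 0 higher, where 3.15% and 3.39% of all loci were. The list level was 3.6, 2.90 and 2.58 on QC_LG 1, 2 and 3 and 3.5 to 4.19 in VSC_LG, so that QC_LG 1 lay among the vascular arrays. A low level was not particular to QC nuclei: SUS_LG stood at 2.81 to 3.10 and EMB_LG at 2.57 to 2.69, while GSC_LG stood at 3.63 to 3.86. FLA12 (AT5G60490), a fasciclin-like arabinogalactan protein, stood at 5.45, 3.84 and 4.65 against 6.59, 7.0, 7.15 and 7.51, at -2.42 (adjusted p = 0.187). IRX9 (AT2G37090), of xylan synthesis, was at -1.77 (0.233), the cellulose synthase genes CESA8 (AT4G18780), CESA7 (AT5G17420) and CESA4 (AT5G44030) at -1.69, -1.74 and -1.33 (0.346, 0.295 and 0.623), and the laccase gene LAC2 (AT2G29130) at -1.84 (0.581). On QC_LG 1, CESA7 was at 5.11 and LAC2 at 6.78, against 2.11 and 2.44, and 2.93 and 2.63, on the other QC arrays. Without QC_LG 1 both were called, at -2.68 (adjusted p = 0.00349) and -3.18 (0.0107). That array held their highest QC values, so leaving it out could only widen the fall, and these calls are no added support. Without 1 array the list median lay between -0.98 (without VSC_LG 2) and -0.48 (without QC_LG 3). It was -0.90 without QC_LG 1 and -0.56 without VSC_LG 3. Ground tissue nuclei at 100 h were close to vascular nuclei in these genes, with means of 5.07 for CESA7 and 6.49 for LAC2.

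RCI2B (AT3G05890), a small membrane protein induced by cold, stood at 3.00, 2.44 and 3.34 in QC_LG and at 6.20, 5.03, 4.98 and 4.77 in VSC_LG. It fell by 2.32 (SE 0.476, adjusted p = 0.0411), and its mean in QC_LG, 2.92, was the lowest of the 11 groups, the others lying between 4.30 and 7.24. The call was lost without any single array but VSC_LG 4, with adjusted p from 0.0596 to 0.184. AT5G17900 stood at 3.12, 1.86 and 1.81 against 5.6, 7.02, 4.68 and 5.37, a difference of -3.40 (SE 0.696, adjusted p = 0.0411), and was lost without QC_LG 2 (0.145), QC_LG 3 (0.211), VSC_LG 1 (0.0953), VSC_LG 2 (0.177) or VSC_LG 4 (0.0581). The dehydrin gene COR47 (AT1G20440) and the aquaporin gene RD28 (AT2G37180), both named for induction by cold or drought, were at -2.05 (0.0609) and -1.97 (0.0708) with arrays that did not overlap. COR47 was called without VSC_LG 4, its lowest vascular array (0.0377), and RD28 without QC_LG 2, its highest QC array (0.0412). Leaving out those arrays could only widen the falls, so these calls are no added support.

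Fast-response genes of wounding and defence had 0 of 31 called, a median of 0.03 that was -0.36 without QC_LG 1 and 0.15 without QC_LG 2, and 3 lower and 0 higher at an unadjusted p under 0.05. WRKY18 (AT4G31800) and WRKY53 (AT4G23810), defence transcription factors, were at -1.43 (adjusted p = 0.46) and -1.05 (0.582), and the jasmonate repressor gene JAZ8 (AT1G30135) at -1.34 (0.611). Genes of ER bodies and cell wall proteins had 0 of 23 called, a median of -0.49 (-0.83 to -0.19 when 1 array was left out, the extremes without VSC_LG 1 and VSC_LG 3), and 3 lower and 0 higher. PYK10 (AT3G09260), the beta-glucosidase stored in ER bodies, was at -1.54 (0.597), the lipid transfer protein gene LTP4 (AT5G59310) at -1.36 (0.621), and the extensin gene EXT4 (AT1G76930) the other way at 1.1 (0.821). The seed maturation list had 0 of 21 called, a median of -0.19 (-0.02 without VSC_LG 3 and -0.35 without VSC_LG 4), and 2 lower and 0 higher, with the storage albumin gene SESA4 (AT4G27170) at -2.81 (0.367), where VSC_LG 2 stood at 8.64 and the other vascular arrays at 4.51 to 5.49.

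**Figure D5:**
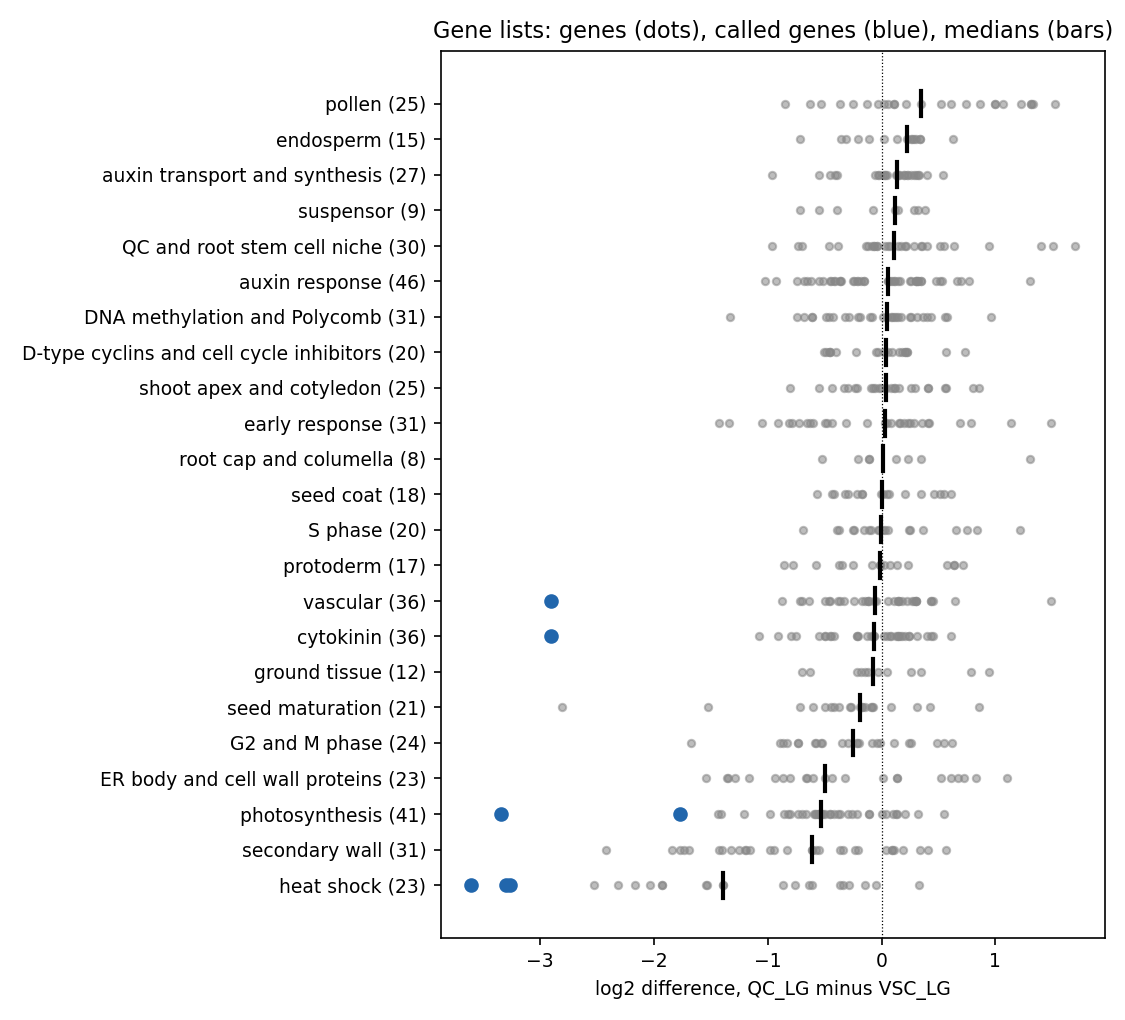
Log2 difference QC_LG minus VSC_LG of each gene of the 23 lists (grey dots, or blue where called), with the number of genes in brackets and the median of each list as a bar, ordered by the median. The heat shock list has the lowest median (-1.39) and the pollen list the highest (0.35).

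Markers of other cell types that a capture could hold were given the same comparison. Pollen genes had 0 of 25 called and a median of 0.35, and 1 was higher and 1 lower at an unadjusted p under 0.05. The list level was 3.82, 4.55 and 5.84 on QC_LG 1, 2 and 3 and 3.79 to 5.03 in VSC_LG, so that QC_LG 3 was the highest of the 7, and the other late globular arrays lay between 2.73 and 4.2. The median was 0.90 without QC_LG 1, 0.09 without QC_LG 3 and 0.04 without VSC_LG 1. MYB101 (AT2G32460), a pollen tube transcription factor, stood at 3.54, 3.76 and 6.01 against 2.97, 2.75, 2.64 and 3.3 (1.52, adjusted p = 0.449). AGP11 (AT3G01700), an arabinogalactan protein of pollen, stood at 6.64, 8.80 and 9.48 against 7.21, 5.83, 6.42 and 8.44, well above the array medians in both groups. QC_LG 3 was also the array on which AT4G14905, AT1G58090 and AT2G22805 were highest, and the part of pollen RNA in those calls was not tested. CYP98A8 was highest on QC_LG 1, the QC array with the lowest level of the pollen list. The part of pollen RNA in the CYP98A8 call was not tested either.

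Seed coat genes, of maternal tissue, had 0 of 18 called, 0 in either direction at an unadjusted p under 0.05 and a median of 0.00, with list levels of 4.89 to 5.22 in QC_LG and 4.76 to 5.63 in VSC_LG. TT4 (AT5G13930) and LDOX (AT4G22880), of flavonoid synthesis and the brightest of that list, had means of 8.19 and 8.27 in QC_LG and 8.41 and 7.93 in VSC_LG. They were at -0.21 (adjusted p = 0.98) and 0.34 (0.966), with SEs of 0.325 and 0.404. Endosperm genes had 0 of 15 called, 1 lower and 0 higher at an unadjusted p under 0.05 and a median of 0.22 (0.03 without QC_LG 2), with list levels of 2.15 to 2.56 and 2.18 to 2.40. IKU1 (AT2G35230), a regulator of endosperm growth, was at 0.30 (0.979), MPC (AT3G19350), an imprinted endosperm gene, at -0.35 (0.981), and MINI3 (AT1G55600), a WRKY factor of endosperm growth, at -0.71 (0.665).

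The remaining lists were centred within 0.12 of 0 and had 0 calls. Their medians were 0.12 for the suspensor (9 genes), -0.07 for ground tissue (12), -0.01 for the protoderm (17) and 0.04 for the shoot apex and cotyledon (25). Without QC_LG 2 the suspensor median was -0.14 and that of the shoot apex and cotyledon -0.10. At an unadjusted p under 0.05, 1 ground tissue gene (SCR) was higher, 1 gene of the shoot apex was higher and 1 lower, and 0 of the suspensor and protoderm lists passed. AS2 (AT1G65620), a regulator of leaf polarity, was at 0.85 (adjusted p = 0.46), with arrays that did not overlap. Protoderm levels were 3.79 to 4.58 in QC_LG and 3.94 to 4.47 in VSC_LG, against 4.36 to 5.35 on the other late globular arrays.

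The called loci were also set beside the other late globular groups. For all 11 rises the mean over GSC_LG, SUS_LG and EMB_LG together was nearer to VSC_LG than to QC_LG, although GSC_LG taken alone was near QC_LG for AT1G30974 (7.17, beside 8.80 in QC_LG and 1.42 in VSC_LG). For the 8 falls it was nearer to QC_LG in 4, HSP70, HSP101, ROF2 and LOG4, and nearer to VSC_LG in the other 4, RBCS1B, LHCA4, RCI2B and AT5G17900. The groups behind that mean were split. GSC_LG taken alone was nearer to VSC_LG for HSP70 (5.51), HSP101 (5.17) and ROF2 (5.26), though not for LOG4 (2.67). SUS_LG taken alone was nearer to QC_LG for RBCS1B (2.83) and AT5G17900 (2.77), though not for LHCA4 (5.71) and RCI2B (4.91). These group means are descriptions and were not tested here.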

How the data were processed

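Nuclear RNA was extracted with TRIzol, amplified to biotin-labelled cDNA by whole-transcriptome amplification, per the labels' protocols. The authors deposited 1 linear intensity value per locus and array, from RMA as the submitters' processing notes name it; its version, the probe sets and the genome build are not stated in the sources used here. RMA normalizes between arrays, so an overall difference in RNA per nucleus can be lost, yet the deposited arrays still differed in interquartile range (1.03 to 2.10); dim loci near background are compressed towards 0. The number of arrays limits the precision.

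Log2 values without an added constant were fitted with limma 3.58.1 (R 4.3.3) over all 38 arrays as 11 group means with no covariate, and QC_LG minus VSC_LG was tested with eBayes (27 residual degrees of freedom, 6.79 prior). P-values were two-sided and adjusted over 27826 loci by Benjamini-Hochberg. As the replicates were pools, p-values measure the spread between pools, taken over all 11 groups and not over the 2 compared alone. The RefSeq gene table of TAIR10.1 held 27241 of the loci, 10564 with a symbol. The 23 gene lists named 545 genes in 569 entries, and each gene had a locus on the array. The members and lists were chosen with earlier results of these data known. The naming rule took called loci with a symbol and no overlap (up to 12 rises and 12 falls), up to 3 called genes per list, the 6 genes of smallest adjusted p and 10 fixed genes of the vascular and quiescent centre lists, and the 2 brightest endosperm and seed coat genes; other genes were named after their values were seen. Alternatives were quantile normalization, median centring, a filter on loci under the 25th percentile, array weights, an intensity trend, a 2-fold threshold, only the 7 arrays compared, the replicate number as a block, the interquartile range as a covariate, and leaving out each array. Code was tested on simulated data, and figures were made in Python 3.11.15 with matplotlib 3.10.9.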

Additional observations from a re-analysis of the deposited data

Results flagged for a closer look

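Of 115 groups of 4 vascular values tested for a lone array far from the others, 6 had one, and chance gives about 1 in 20. VSC_LG 3 lay apart for MED9 (AT1G55080), at 3.07 against 1.77 to 1.99 on the other vascular arrays, a gap of 0.832 of the range. The same array lay apart for HSFA2 (AT2G26150), at 6.16 against 4.33 to 4.48 (0.917). VSC_LG 2 was the low array for RBCS1A (AT1G67090), at 5.61 against 6.26 to 6.36 (0.864). VSC_LG 1 was high for the seed coat gene TT10 (AT5G48100), at 3.69 against 2.79 to 2.90 (0.876), and for the mean level of the seed coat list, at 5.63 against 4.76 to 4.80 (0.955). VSC_LG 4 was high for the mean level of the auxin transport and synthesis list, at 2.99 against 2.76 to 2.78 (0.947). The QC_LG group of 3 arrays was too small for this test.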

How the results depend on the processing

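The 19 calls became 44 with quantile normalization, 29 with the interquartile range of each array as a covariate, 1 with an added 2-fold threshold and 1, AT1G30974, when the 7 arrays were fitted alone, with fewer arrays to estimate the spread. Leaving out 1 array gave 4 to 49. The other settings gave 15 to 27, with 13 higher and 2 lower under array weights. Array weights lost the falls HSP101, ROF2, LHCA4, AT5G17900, RCI2B and LOG4 and the rise AT5G42053. RCI2B was also lost with the intensity trend and the replicate block. The replicate number as a block gave 17 calls, of which 15 were among the 19. Same-numbered arrays of the 2 groups deviated together at r = 0.136, 0.148 and -0.035, and differently numbered arrays at -0.111 to 0.115. The labels state no pairing, and whether a replicate number marks a shared batch was not tested. Of the 19 called loci, AT1G30974 alone held in all 14 reruns, and 0 changed direction. Among uncalled genes, direction turned when 1 array was left out for IKU1 (-0.10 to 0.58, negative without QC_LG 3), MPC (-0.76 to 0.059, positive without QC_LG 1), TT4 (-0.41 to 0.059, positive without VSC_LG 1) and LDOX (-0.19 to 0.68, negative without QC_LG 2); the cause was not tested. With 3 and 4 arrays and a median SE of 0.39, differences smaller than about 1.7 were not called, and genes near the array medians, many cell-type markers among them, can carry differences that these arrays do not show.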
